A study of Mus musculus with 4 samples.

Results

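Glutathione S-transferases join the tripeptide glutathione to reactive and toxic compounds, which are then pumped out of the cell. The 10 genes described here are Gstm1, Gstm2, Gstm5, Gstp1, Gstp2, Gsta4, Gsto1, Gstt1, Mgst1 and Mgst3, out of 29835 genes in the count matrices. They were chosen by their CPM (molecules of a gene per 1000000 counted) in these same 4 libraries, within cells gated by marker counts, so their levels are given as a description and no test was made on them. The cells came from the ascites of C57BL/6 mice that carried ID8-Trp53-/- tumour cells, a line made from mouse ovarian surface epithelium and lacking Trp53. The cells were injected into the peritoneal cavity and grew for 7 days before treatment, which was repeated until an ascites volume of about 3 mL was reached. Control mice were given DMSO and an IgG antibody. The BTYNB group received BTYNB, an inhibitor of the RNA-binding protein Igf2bp1, at 50 mg/kg with the IgG antibody. The anti-PD-1 group received DMSO and an antibody that blocks the T cell receptor PD-1, and the combination group received BTYNB and that antibody. The antibodies were given at 100 ng per dose by the labels. The study's methods state other amounts for both agents, and which are right could not be settled. All mice carried the same Trp53-deficient line, and cells of the animals of a treatment were pooled into 1 library, so the 4 libraries hold no measure of spread between animals. Red cells were depleted, the cells were frozen and thawed, and dead cells were removed before capture.

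The cytosolic enzymes fall into classes named after Greek letters. Mu (Gstm), pi (Gstp), alpha (Gsta), omega (Gsto) and theta (Gstt) members differ in the compounds they accept. Mgst1 and Mgst3 belong to a separate family of membrane proteins that also holds enzymes of leukotriene and prostaglandin synthesis. Many of these genes are known targets of Nrf2, a transcription factor that binds the antioxidant response element when electrophiles or oxidants inactivate its partner Keap1.

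Gstp1 and Gstp2 are near-identical copies, which bears on how every pi-class value below can be read. Their open reading frames, in the GENCODE mouse transcripts of GRCm38, are both 633 bases long and differ at 12 bases, so that 98.1% of bases are alike. The window with the most differences, bases 6 to 35 of the reading frame, is shown for both copies with the 5 differing bases in capitals.
Gstp1: AccAtacaccattgtctacttcccaGTtcG
Gstp2: GccGtacaccattgtctacttcccaAGtcC
In the last 400 bases of the transcript, where a 3′ library reads most, 91.2% of the 50-base stretches of Gstp1 also occur in Gstp2. How the authors' counting shared out reads that match both copies was not given in the sources used here. The sum of both copies is therefore given beside their levels in tumour-gate cells. For myeloid and T cells only single values are given, and these carry the same limit. Over whole transcripts Gstp1 shared 62.3% of its 50-base stretches with another glutathione transferase gene, Gstp2 64.3%, Gstm1 10.9% and Gstm2 1.08%, and the other members shared none.

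A match to the core of the antioxidant response element, TGACNNNGC on either strand, was looked for in the RefSeq promoters of GRCm38.p6, which run from 250 bases before to 50 after each start site. A promoter was listed for 9 of the 10 members and not for Gsta4. It held a match in Gstm5 and Mgst1, or 22.2% of the 9, against 14.0% of all 27025 genes with a listed promoter. The windows are printed with the match in capitals, for Gstm5 at chr3:107895802-107895830 on the plus strand and for Mgst1 at chr6:138140461-138140489 on the plus strand, where the match reads on the opposite strand.
Gstm5: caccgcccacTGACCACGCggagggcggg
Mgst1: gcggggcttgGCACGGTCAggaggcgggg
The Gstm5 match began 42 bases before the start site and that of Mgst1 56 bases before it. A match of these letters is a description of the promoter and shows no binding. The files hold gene symbols without coordinates, and their build was GRCm39 per the submitters' processing notes, so the coordinates above are those of the reference only.

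In all, 7858 cells were deposited for control, 19247 for BTYNB, 12163 for anti-PD-1 and 7074 for the combination, with 78603888 to 114600397 unique molecular identifiers (UMIs, counted molecules) per library. The smallest deposited cell had 869 UMIs in BTYNB and 3533 to 5115 in the other libraries, so the BTYNB library holds shallow cells that the others do not. Library pairs shared 0 to 4 cell barcodes. A cell was taken as tumour with at least 5 UMIs of Krt7, Krt8, Krt18, Krt19 and Wt1 together and 0 of Ptprc. It took 7114 cells under control treatment, 3606 under BTYNB, 10923 under anti-PD-1 and 4369 under the combination, with median depths of 9783, 15221, 7160 and 11503 UMIs. Tumour genes that the gate does not use were present in it, with Upk3b at 455 to 641 CPM and Msln at 51.8 to 75.2 CPM, while Epcam was at 0.230 CPM or less in every library. Just outside the gate, cells with 3 to 4 marker UMIs held all 10 members at 2400 CPM in control, and cells with 5 to 6 held them at 2548. The corresponding values were 1696 and 1719 in BTYNB, 2516 and 2627 under anti-PD-1 and 1632 and 1923 in the combination.

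Together the 10 genes made up 2406 CPM of the control tumour-gate cells, 2066 in BTYNB, 2035 under anti-PD-1 and 1983 in the combination. The sum was thus highest in control. Such sums over pooled cells do not tell fewer expressing cells from less RNA per cell. Shares of tumour-gate cells with a UMI of a member were taken after thinning cells to 2000 UMIs. For Gsta4 they were 39.9% in control, 26.3% in BTYNB, 38.4% under anti-PD-1 and 25.5% in the combination. For Mgst1 they were 66.3%, 72.1%, 61.5% and 67.2%. Every member but Gstm5 and Mgst1 had a lower share in BTYNB than in control. A share can fall in either case, and which applied was not tested.

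**Figure D1:**
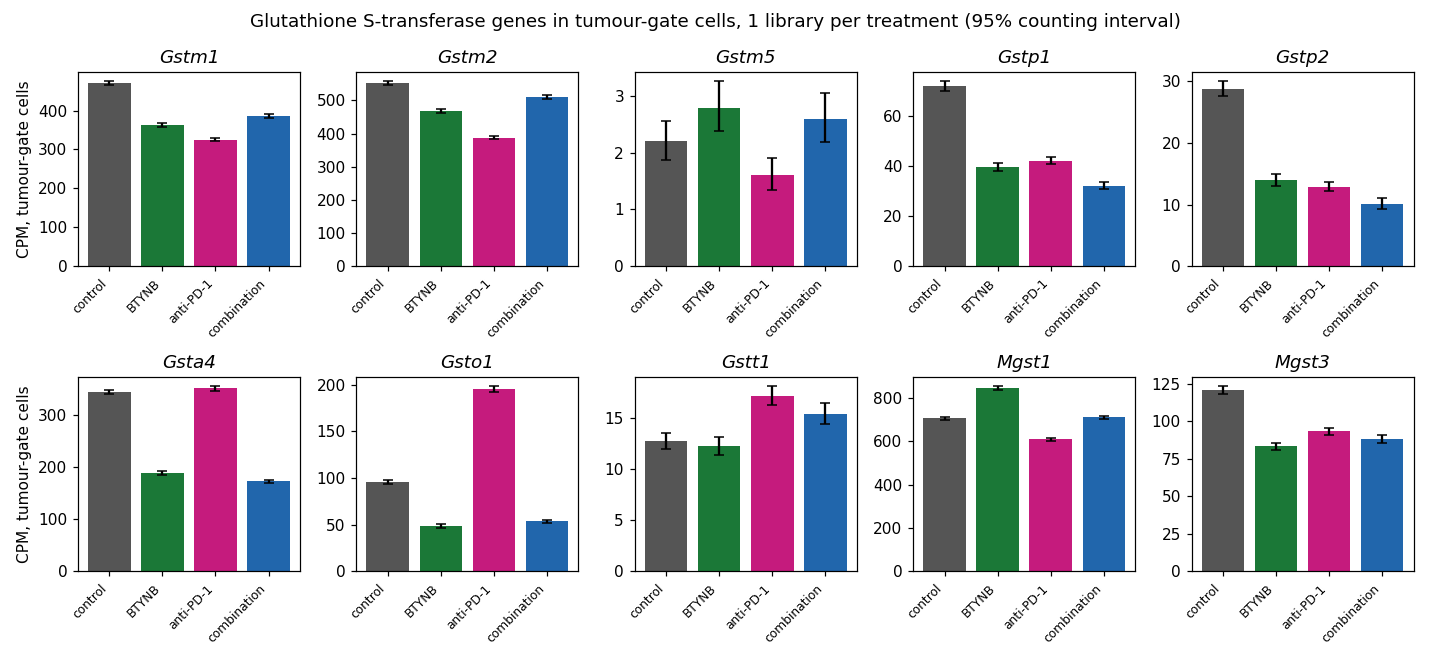
Each panel plots 1 gene, with a bar per library for its CPM in tumour-gate cells and whiskers for the 95% Poisson counting interval, which covers counting error and no spread between animals. Gsto1 stands at 195 CPM in anti-PD-1 against 48.5 to 95.5 in the other libraries, and Gstp1 and Gstp2 are highest in control.

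Among the mu class, Gstm1, a cytosolic enzyme that conjugates epoxides and quinones, was at 471 CPM in control, 363 in BTYNB, 325 under anti-PD-1 and 386 in the combination, all in tumour-gate cells. Gstm2, its neighbour in the same gene cluster, was at 553 CPM in control, 469 in BTYNB, 387 under anti-PD-1 and 510.0 in the combination. Both were highest in control and lowest in anti-PD-1. Against control, the log2 ratio of Gstm1 was -0.38 in BTYNB (95% counting interval -0.40 to -0.35) and -0.53 in anti-PD-1 (-0.55 to -0.51). For Gstm2 these ratios were -0.24 (-0.26 to -0.22) and -0.51 (-0.53 to -0.49). None reached 1.5-fold. Gstm5 was scarce, at 2.20, 2.80, 1.61 and 2.60 CPM in the same order of libraries, on 133 to 165 UMIs each.

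Of the pi class, Gstp1, which conjugates electrophiles and also binds the stress kinase JNK, was at 72.2 CPM in control, 39.7 in BTYNB, 42.2 under anti-PD-1 and 32.3 in the combination, all in tumour-gate cells. Gstp2 was at 28.8, 14.0, 12.9 and 10.1 CPM in that order. Both copies were highest in control and lowest in combination. Summed, they stood at 101 CPM in control, 53.7 in BTYNB, 55.1 under anti-PD-1 and 42.4 in the combination. The log2 ratio of the sum against control was -0.90 in BTYNB (-0.96 to -0.84) and -0.86 in anti-PD-1 (-0.92 to -0.81). Adding BTYNB to anti-PD-1 came with a log2 ratio of -0.37 (-0.44 to -0.30), and adding anti-PD-1 to BTYNB with -0.33 (-0.41 to -0.26), both short of 1.5-fold. Gstp3, a further pi-class gene named here after its values were seen, shared no 50-base stretch with Gstp1 or Gstp2 and was at 134 CPM in control, 172 in BTYNB, 166 under anti-PD-1 and 187 in the combination. It was lowest in control, where the other pi-class genes were highest.

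In the alpha class, Gsta4, which clears 4-hydroxynonenal, a product of lipid peroxidation, was at 345 CPM in control, 189 in BTYNB, 352 under anti-PD-1 and 173 in the combination. The level was low in the 2 libraries with BTYNB and alike in the 2 without it. The log2 ratio was -0.87 for BTYNB against control (-0.90 to -0.84) and -1.02 for combination against anti-PD-1 (-1.05 to -0.98). It was 0.03 for anti-PD-1 against control (0.00 to 0.05) and -0.12 for combination against BTYNB (-0.16 to -0.08).

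In the omega class, Gsto1, which reduces dehydroascorbate and removes glutathione from proteins, was at 95.5 CPM in control, 48.5 in BTYNB, 195 under anti-PD-1 and 53.4 in the combination. It was the highest of the 4 libraries in anti-PD-1 and low in both libraries with BTYNB. Its log2 ratio was 1.02 when anti-PD-1 was set against control (0.98 to 1.06). It was -0.96 when BTYNB was set against control (-1.02 to -0.90) and -1.85 for the combination against anti-PD-1 (-1.91 to -1.79), the last being the furthest from 0 of any member in these 4 comparisons. Gsto2, the other omega-class gene, was scarce and was also highest in anti-PD-1, at 1.23 CPM in control, 1.31 in BTYNB, 4.91 under anti-PD-1 and 1.02 in the combination.

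Gstt1, a theta-class enzyme, was at 12.7 CPM in control, 12.2 in BTYNB, 17.2 under anti-PD-1 and 15.4 in the combination. Mgst1, which sits in the membranes of the endoplasmic reticulum and mitochondria, was at 705 CPM in control, 845 in BTYNB, 608 under anti-PD-1 and 711 in the combination. It was highest in BTYNB and lowest in anti-PD-1, but no ratio reached 1.5-fold. Mgst3, a membrane enzyme with glutathione peroxidase activity, was at 121 CPM in control, 83.3 in BTYNB, 93.2 under anti-PD-1 and 88.2 in the combination. Its log2 ratio of -0.53 for BTYNB against control (-0.58 to -0.48) lay just short of 1.5-fold.

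Counted over the members, BTYNB against control had 4 of 10 lower by at least 1.5-fold (Gstp1, Gstp2, Gsta4, Gsto1), where 2.63% of the 15756 genes with at least 100 UMIs over the libraries were, and 0 higher, against 3.24% of all genes. Anti-PD-1 against control had 2 lower (Gstp1, Gstp2) against 2.56% of genes, and 1 higher (Gsto1) against 4.98%. Combination against anti-PD-1 had 2 lower (Gsta4, Gsto1) against 4.7% and 0 higher against 3.91%. Combination against BTYNB had 0 lower against 0.216% and 0 higher against 0.374%. The median log2 ratio of the 10 genes was -0.45, -0.33, -0.11 and 0.00 in these comparisons, with medians over all genes of 0.01, -0.05, 0.06 and -0.01. The rule that chose the members used these same values. Markers of other cell types were present in the tumour gate and not level across libraries. The 3 fibroblast markers, with Dcn making up most of the sum, came to 294 CPM in control, 318 in BTYNB, 216 under anti-PD-1 and 258 in the combination, and the 3 erythroid markers to 16.5, 78.2, 46.3 and 23.5 CPM. The 7 myeloid markers, all detected, summed to 35.5 CPM in control, 44.7 in BTYNB, 78.9 under anti-PD-1 and 93.2 in the combination, and the 7 T cell markers to 12.9 to 20.5 CPM. The 3 pan-leukocyte markers, with Ptprc at 0 by the gate, summed to 13.9, 27.9, 104 and 36.2 CPM in that order, of which Cd52 made up 99.9 under anti-PD-1, the library where Gsto1 was highest. Their part in these ratios was not tested. The comparisons share libraries in pairs, so none is independent of the others.

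The tumour-gate cells were then split by Cxcl17 (at least 3 UMIs) and by a Cd24a module (at least 5 UMIs of Cd24a, Gkn2 and Krtdap together). Cells past both limits numbered 271 in control, 277 in BTYNB, 1556 under anti-PD-1 and 382 in the combination, and cells past neither 3432, 1835, 6231 and 2019. The cells past both limits were not alike across libraries. Gkn2, a gastric gene and 1 of the 3 that set the module limit, was at 1179 CPM in those of anti-PD-1 and at 0.422 CPM or less in those of each other library, which describes what the limit took in and is no result of its own. In the anti-PD-1 cells past both limits the tumour genes Upk3b (69.3 CPM against 672 in cells past neither) and Muc16 (5.5 against 58.5) were low, while Krt8 stood at 787 CPM against 369.9. Of 3 pan-leukocyte markers, Cd52 was at 280.3 CPM in these cells against 33.7 in cells past neither and Coro1a at 2.7 against 5.5, while Ptprc is at 0 by the gate. The 3 fibroblast markers summed to 43.2 CPM against 297. The part of these shifts in the members' differences was not tested.

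In the anti-PD-1 library the members differed in both directions between these cells, also within the pi class and the membrane family. Gsta4 was at 748 CPM in cells past both limits and 169 in cells past neither, a log2 ratio of 2.14 (2.10 to 2.18). Gsto1 was at 503 CPM against 74.2, a log2 ratio of 2.74 (2.68 to 2.80), and Mgst3 at 113 CPM against 71.4. The mu-class genes went the other way. Gstm1 was at 49.9 CPM in cells past both limits against 430.2 in cells past neither, a log2 ratio of -3.08 (-3.19 to -2.98), and Gstm2 at 85.1 CPM against 514, a log2 ratio of -2.58 (-2.66 to -2.50). Mgst1 was at 204 CPM against 777 and Gstt1 at 3.34 CPM against 23.1. Gstm5, at 0.458 CPM against 2.47, rested on 7 UMIs in the cells past both limits. Gstp1 (51.4 against 38.3 CPM) and Gstp2 (9.09 against 13.5) pointed in opposite directions, and their sum was at 60.5 CPM against 51.8. Of the 10 members, 3 were higher by at least 1.5-fold against 10.4% of 12204 genes, and 5 were lower against 27% of them, with a median log2 ratio of -0.89 for the members and -0.20 for all genes.

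In the other libraries the same split gave smaller differences for Gsto1, at 69.8 CPM in control cells past both limits against 57.4 in cells past neither, 40.9 against 33.3 in BTYNB and 59.2 against 39.8 in combination. Gsta4 was higher in cells past both limits in all 4 libraries, at 449.6 against 204 CPM in control, 266 against 115 in BTYNB and 268 against 119.9 in combination. Gstm1 was lower in cells past both limits in all 4 libraries, at 261 against 469 CPM in control, 277 against 481 in BTYNB and 258 against 489 in combination. The same order held for Gstm2, at 351 against 583 CPM in control, 364 against 522 in BTYNB and 375 against 585 in combination. Cells past both limits were also deeper, with medians of 15166 against 8516.5 UMIs in control, 28431 against 7676 in BTYNB, 9591 against 6297 under anti-PD-1 and 16915 against 9864 in the combination. A limit on UMIs favours deep cells, and the part of depth in these differences was not tested.

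**Figure D2:**
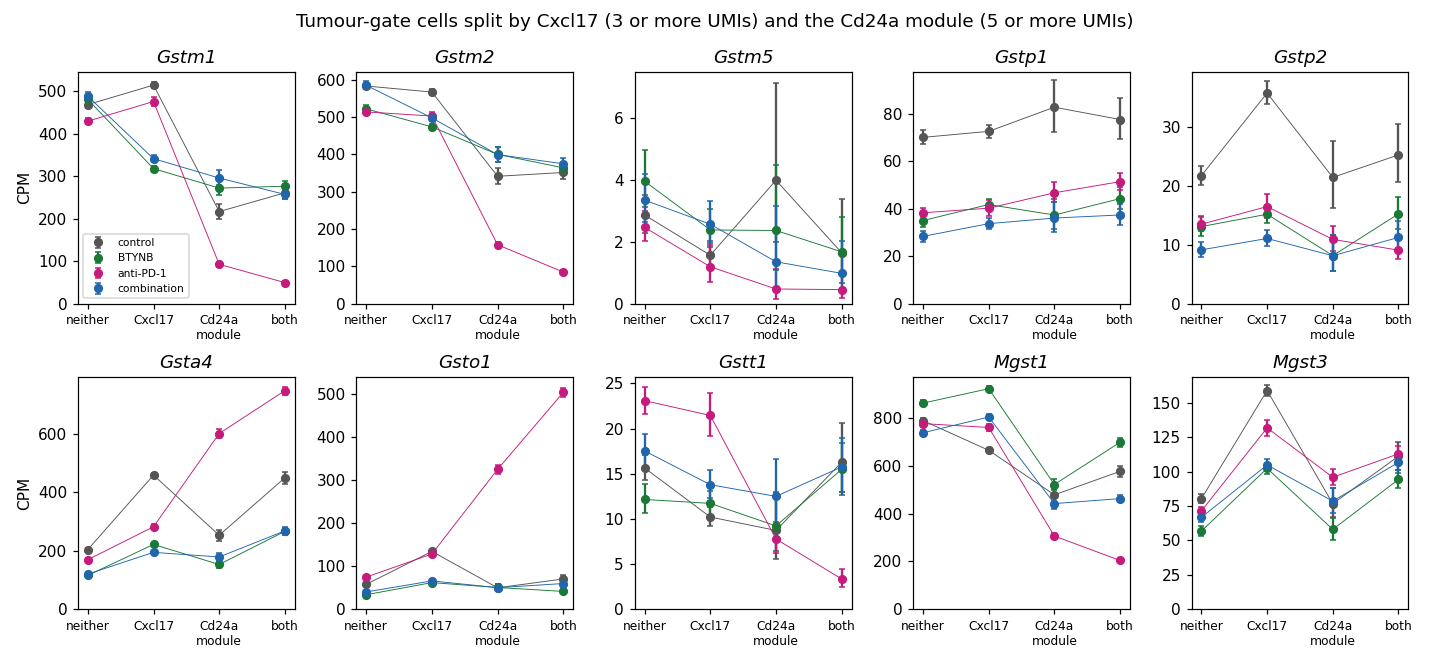
Each panel plots 1 gene in CPM, with points for tumour-gate cells past neither limit, past Cxcl17 alone, past the Cd24a module alone and past both, coloured by library, and whiskers for the 95% counting interval. In anti-PD-1 cells past both limits Gsto1 reaches 503 CPM and Gstm1 falls to 49.9, while Gstp1 is highest in control in each of the 4 classes.

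Cells past the Cxcl17 limit alone showed another pattern. Gsta4 was at 459 CPM in these cells against 204 in cells past neither in control, 221 against 115 in BTYNB, 282 against 169 under anti-PD-1 and 194 against 119.9 in the combination. Gsto1 was at 134 CPM against 57.4 in control, 61.4 against 33.3 in BTYNB, 128 against 74.2 under anti-PD-1 and 65.3 against 39.8 in the combination. Mgst3 was at 159 CPM against 80.3 in control, 102 against 56.7 in BTYNB, 132 against 71.4 under anti-PD-1 and 105 against 66.7 in the combination. All 3 genes were thus higher in Cxcl17 cells in each of the 4 libraries. Gstm2 did not share this order, with 567 against 583 CPM in control, 474 against 522 in BTYNB, 503 against 514 under anti-PD-1 and 498 against 585 in the combination.

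Since the share of these cells differed between libraries, the treatment comparisons were repeated in cells past neither limit. Gsto1 was there at 57.4 CPM in control, 33.3 in BTYNB, 74.2 under anti-PD-1 and 39.8 in the combination, and Gsta4 at 204, 115, 169 and 119.9 CPM. The order of libraries held for Gsto1, with the anti-PD-1 excess over control down to a log2 ratio of 0.36. Gsta4 in anti-PD-1 now lay below control, at -0.27. Gstp1 and Gstp2 summed to 91.8 CPM in control, 48.2 in BTYNB, 51.8 under anti-PD-1 and 37.5 in the combination, close to their levels in all tumour-gate cells. Gstm1, at 469 CPM in control, 481 in BTYNB, 430.2 under anti-PD-1 and 489 in the combination, was nearly level across libraries in these cells. Gstm2, at 583, 522, 514 and 585 CPM in the same order, also varied less than in all tumour-gate cells. In cells past the Cxcl17 limit alone the orders differed. Gstm1 was there at 515 CPM in control, 318 in BTYNB, 476 under anti-PD-1 and 342 in the combination. Gsto1 was not higher under anti-PD-1 (128 CPM) than in control (134), and Gsta4 was lower, at 282 against 459 CPM.

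Counted in cells past neither limit, BTYNB against control had the same 4 members lower by at least 1.5-fold (Gstp1, Gstp2, Gsta4, Gsto1), against 2.59% of 13729 genes, and 0 higher against 3.5%. Anti-PD-1 against control had Gstp1 and Gstp2 lower against 1.14% and 0 members higher against 2.65%. Combination against anti-PD-1 had Gsto1 lower against 2.64% and 0 higher against 3.97%. Combination against BTYNB had 0 lower against 0.495% and 0 higher against 1.01%. In cells past the Cxcl17 limit alone, BTYNB against control had 6 lower, Gstm1 and Mgst3 being added, against 5.74% of 13212 genes, and 0 higher against 7.66%. Anti-PD-1 against control had 3 lower (Gstp1, Gstp2, Gsta4) against 1.98% and Gstt1 higher against 4.47%. Combination against anti-PD-1 had Gsto1 and Gstt1 lower against 2.55% and Gstm5 higher against 3.87%. Combination against BTYNB had 0 lower against 0.288% and 0 higher against 0.742%.

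Graded by the number of module UMIs in a cell, the anti-PD-1 library showed an even order for most members. Over cells with 0, 1 to 4, 5 to 19 and at least 20 module UMIs, Gsto1 was at 76.4, 103, 395 and 477 CPM and Gsta4 at 169, 235, 527 and 901 CPM. Gstm1 was at 525, 344, 102 and 22.2 CPM over the same cells, Gstm2 at 582, 426, 160 and 55.7 CPM, and Mgst1 at 844, 689, 336 and 126 CPM. The first pair thus climbed at each step and the others dropped at each step. These classes held 4730, 3422, 1654 and 1117 cells with median depths of 6090, 7246, 8545 and 9801 UMIs. In control the order differed for Gsto1, which was at 118 CPM in cells with 0 module UMIs, 66.9 with 1 to 4, 59.3 with 5 to 19 and 133 (90.1 to 188) in the 12 cells with at least 20, on 31 UMIs. Gstm1, Gstm2 and Mgst1 dropped at each step in the other libraries too, with Gstm1 at 569, 367, 248 and 124 CPM in control. Gsta4 climbed at each step in BTYNB (162 to 296 CPM) and the combination (144 to 293). Gsto1 went from 53.6 to 42.8 CPM in BTYNB and from 52.0 to 60.1 in the combination. Just below the limit, at 3 to 4 module UMIs, anti-PD-1 cells held Gsto1 at 174 CPM and Gsta4 at 299.8, and just above it, at 5 to 6, at 277 and 390.1.

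**Figure D3:**
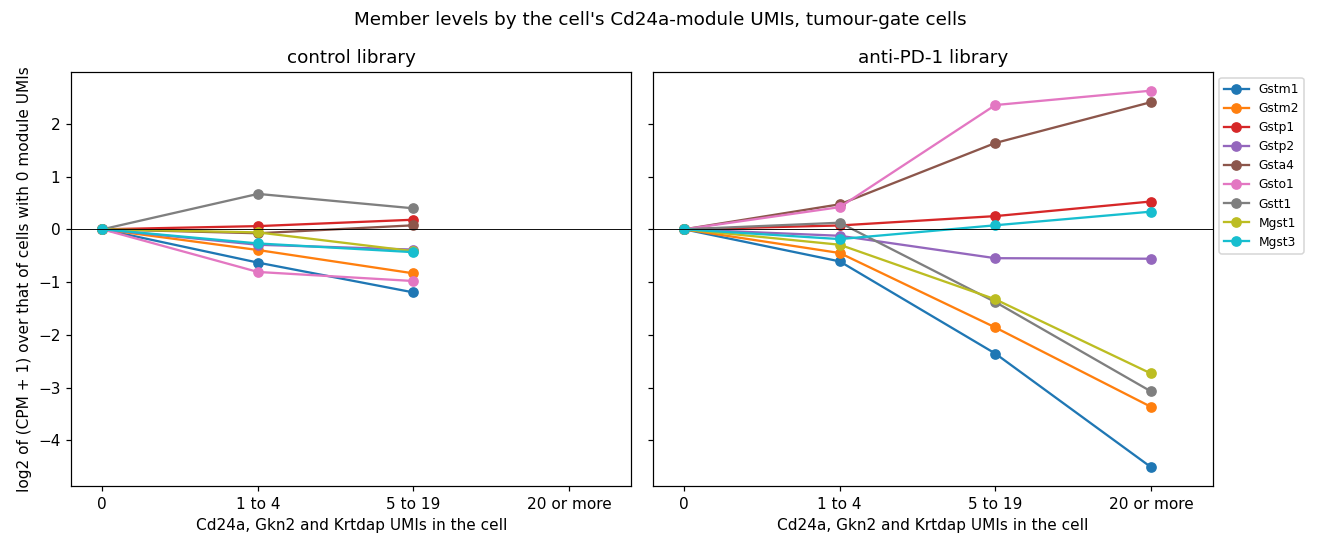
The lines follow 9 members (Gstm5 is left out for its low counts) over tumour-gate cells with 0, 1 to 4, 5 to 19 and at least 20 UMIs of Cd24a, Gkn2 and Krtdap, as the log2 of (CPM + 1) over that of cells with 0. In anti-PD-1 Gsto1 climbs to 477 CPM while Gstm1 drops to 22.2, and in control, where the class of at least 20 held 12 cells and is not drawn, Gsto1 is lower at 5 to 19 UMIs (59.3 CPM) than at 0 (118 CPM).

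Over the 16 groups of tumour subset and library, log2(CPM + 1) of Gstm1 and Gstm2 had a Pearson correlation of 0.99, of Gstm1 and Mgst1 0.91, of Gsta4 and Gsto1 0.85 and of Gstp1 and Gstp2 0.79. Gsto1 had negative values with Gstm5 (-0.79), Gstm2 (-0.77) and Gstm1 (-0.72). These groups share libraries and depth, so the values describe the 16 groups only. Over 22 groups of gate, subset and library with at least 50 cells, the genes most like Gsta4 among 8559 were Perp (0.99), Fhl2 (0.99) and Fam3c (0.98). For Gsto1 they were Slc26a2 (0.94), Ank (0.92) and Frrs1 (0.91), for Gstm1 Casp12 (0.97), Myh10 (0.96) and Arhgap29 (0.96), and for Gstm2 Timp3 (0.99), Sdc2 (0.99) and Pakap (0.99). Gstp1 was most like Gpx4 (0.96), the glutathione peroxidase that reduces lipid hydroperoxides, followed by Rnf121 (0.95) and Rce1 (0.94). The nearest to the other members were Ndufv1 for Gstp2 (0.96), Pdgfa for Gstt1 (0.96), Wls for Mgst1 (0.98), Ttc33 for Mgst3 (0.98) and Dennd2a for Gstm5 (0.84). The 22 groups take in myeloid and T cells, so these values also follow differences between tumour cells and leukocytes. Gstm1 with Gsta4 had 0.50 over the 22 groups and -0.70 over the 16 tumour groups.

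Position on the chromosome was set beside these values, a step added after they were seen. The 4 nearest protein-coding genes on each side of each member, other glutathione transferases left out, were taken from RefSeq (GRCm38.p6) with at least 100 UMIs in tumour-gate cells. For BTYNB against control the median log2 ratio of the 8 neighbours lay between -0.03 and 0.145 for each of the 10 members. Ndufv1, a respiratory chain subunit and the nearest such gene on 1 side of Gstp1 and Gstp2, had log2 ratios of -0.48 in BTYNB and -0.65 in anti-PD-1 against control. Acy3, on the same side, had 0.38 and 0.76, and Cdk2ap2, on the other side, had 0.25 and 0.29. None of the 8 neighbours of the mu-class cluster reached 1.5-fold in any of the 4 comparisons, and neither did Gstm1, Gstm2 or Gstm5. Of all 15756 genes, 0.216% to 4.98% were past it in a given direction and comparison. Gm12500 and Gnat2 among these neighbours were at 0.573 CPM or less, where the pseudocount damps a ratio. The part of position in the members' values was not tested.

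Outside the tumour gate, myeloid cells were taken with at least 3 UMIs of Lyz2 and Csf1r and at most 2 of the keratins Krt7, Krt8, Krt18 and Krt19, which gave 292 cells for control, 3134 for BTYNB, 384 for anti-PD-1 and 1258 for the combination with median depths of 4202.5 to 7067 UMIs. Cells can carry free RNA of other cells, so each member's myeloid level was set beside its tumour level in the same library, with the same for 5 tumour genes that the gates do not use (Msln, Upk1b, Upk3b, Muc16 and Lrrn4). These 5 genes were in myeloid cells at 7.0 to 27.1% of their tumour level in control, 1.6 to 10.3% in BTYNB, 12.6 to 28.1% under anti-PD-1 and 5.3 to 10.9% in the combination. Epcam was left out, since it was not a tumour gene here. Other RNA of the tumour gate was in myeloid cells too. The 3 fibroblast markers summed there to 76.8 CPM in control, against 294 in tumour-gate cells, and to 100 against 216 under anti-PD-1. The values were 7.40 against 318 in BTYNB and 19.4 against 258 in the combination. A level above the 5 genes is thus a rank against those 5 only, and the part of free RNA in it was not tested.

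Gsto1 in myeloid cells was at 94.9 CPM in control, 94.6 in BTYNB, 104 under anti-PD-1 and 103 in the combination, or 99.4%, 195%, 53.2% and 193% of its tumour level. It was above all 5 tumour genes in each library and nearly level across treatments. Thinned to 2000 UMIs per cell, 15.8% of myeloid cells in control, 16.0% in BTYNB, 18.5% under anti-PD-1 and 18.6% in combination held a Gsto1 UMI, against 14.5%, 7.22%, 21.7% and 8.26% of tumour-gate cells. Without thinning the myeloid shares were 41.4%, 32.5%, 34.6% and 49.4%, and thinning left out 379 BTYNB myeloid and 256 BTYNB tumour-gate cells. Gsta4, by contrast, was at 37.3, 4.0, 20.3 and 8.01 CPM in myeloid cells, or 10.8%, 2.1%, 5.8% and 4.6% of its tumour level, within the range of the 5 tumour genes in control and BTYNB and below it under anti-PD-1 and in the combination.

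Gstp1 in myeloid cells was at 26.8 CPM in control, 12.1 in BTYNB, 29.0 under anti-PD-1 and 14.3 in the combination, or 37.1%, 30.4%, 68.8% and 44.2% of its tumour level and above all 5 tumour genes in each library. Gstm1 was at 97.2, 52.3, 114 and 59.6 CPM, or 20.7%, 14.4%, 34.9% and 15.4%, above the 5 genes in all libraries but control. Mgst1 was at 221, 84.8, 291 and 121 CPM, or 31.3%, 10.04%, 47.8% and 17.0%, above the 5 genes in all libraries but BTYNB. Mgst3, at 30.3, 17.5, 31.3 and 26.0 CPM, stood at 25.1%, 21.0%, 33.6% and 29.5% and above them in all but control. Gstm2 was at 71.0, 10.2, 85.3 and 27.6 CPM, or 12.8%, 2.2%, 22.0% and 5.4%, within the range of the 5 genes in each library. Gstp2 rested on 5 to 20 UMIs per library, Gstt1 on 3 to 18 and Gstm5 on 3 to 15, too few to rank.

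T cells were taken with at least 2 UMIs of Cd3d, Cd3e and Cd3g, which gave 22 cells for control, 2481 for BTYNB, 30 for anti-PD-1 and 158 for the combination. Keratin transcripts ran with this gate. Krt8 stood at 19.5% of its tumour level in BTYNB T-gate cells and at 44.6% in those of combination. With the keratin limit of the myeloid gate, added after these values were seen, 7 cells were left for control, 2381 for BTYNB, 11 for anti-PD-1 and 96 for the combination, and Krt8 stood at 4.8% in BTYNB and 7.6% in combination. The control and anti-PD-1 cells were too few to describe. In BTYNB T cells under the limit Gsto1 was at 35.4 CPM, or 73.0% of its tumour level, and Gstp1 at 11.5 CPM, or 29.1%, where the 5 tumour genes were at 4.8 to 20.2%. Gstm1 was there at 35.5 CPM (9.8%), Gstm2 at 21.3 (4.5%), Gsta4 at 6.88 (3.7%), Mgst1 at 42.4 (5.0%) and Mgst3 at 5.44 (6.5%), all within that range or below it. In combination T cells under the limit Gsto1 was at 92.5 CPM, on 64 UMIs, against 53.4 in tumour-gate cells. Of these 96 cells, 37 were also in the myeloid gate, where Gsto1 was at 103 CPM. The 7 myeloid markers summed to 4090 CPM in the 96 cells. In the 2381 BTYNB T cells, 90 of them also in the myeloid gate, they summed to 808 CPM. The part of these shared cells in the T cell values was not tested. Without the keratin limit Gstm1 in BTYNB T-gate cells was at 77.9 CPM and Gsta4 at 30.7, above their levels under it.

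**Figure D4:**
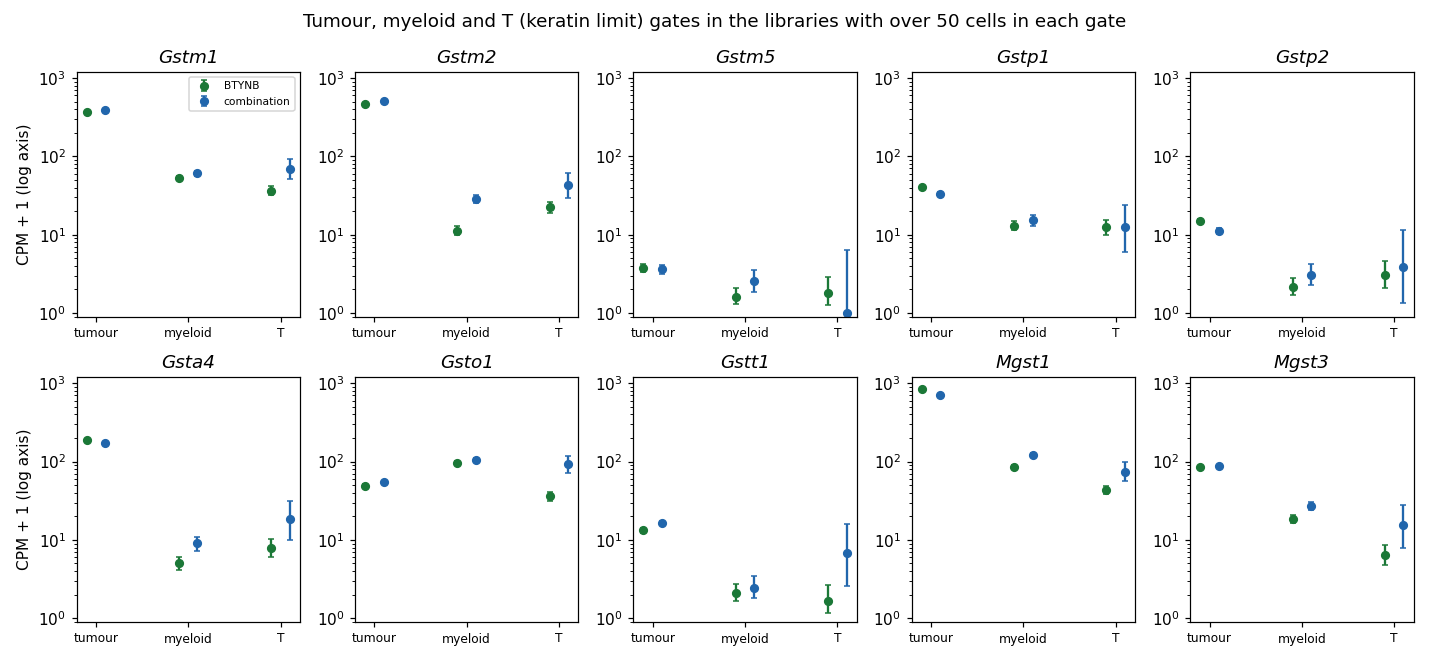
Each panel plots CPM + 1 on a log axis for tumour, myeloid and T cells (T under the keratin limit) of the BTYNB and combination libraries, with 95% counting intervals. Gsto1 in myeloid cells (94.6 and 103 CPM) lies above tumour cells (48.5 and 53.4), while Gsta4 drops from 189 and 173 CPM in tumour to 4.0 and 8.01 in myeloid cells. Of the 96 combination T cells, 37 were also in the myeloid gate.

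The wider glutathione pathway was described by lists chosen with earlier results of these data known. For BTYNB against control in tumour-gate cells, 0 of 14 measured other glutathione transferases and 0 of 20 Nrf2 target genes lay past 1.5-fold, with median log2 ratios of 0.05 and -0.12. Of the 7 Nrf2 regulators 3 were higher, namely Bach2 (1.11), Bach1 (0.64) and Mafk (0.62), where 3.24% of all 15756 genes were. Bach1 and Bach2 are repressors that bind the same element as Nrf2, and Mafk is their small Maf partner. Gss, which completes glutathione synthesis, was lower (34.0 against 51.7 CPM), as was Glrx, a glutaredoxin (22.5 against 37.8 CPM), each the 1 gene past 1.5-fold in its list. These lists held 13 and 10 measured genes, and 2.63% of all genes were lower. Cyp2s1 was lower among the other drug-metabolising enzymes, at 215 against 338 CPM, and no conjugate export pump or MAPEG relative (the membrane family of Mgst1) was past 1.5-fold.

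For anti-PD-1 against control, 3 of 20 Nrf2 target genes were higher, where 4.98% of all genes were. These were Osgin1 (44.4 against 19.2 CPM), Hmox1, the haem oxygenase (54.8 against 31.8), and Slc7a11, the cystine importer (2.63 against 0.854), and none was lower. Ggct, which breaks down gamma-glutamyl peptides, was higher at 110 against 56.3 CPM. With Slc7a11 it made 2 of 13 genes of synthesis and turnover that were higher, and 0 were lower. Gpx4 (334 against 518 CPM) and Gpx8 (37.2 against 60.5) were the 2 of 10 peroxidases and glutaredoxins that were lower, where 2.56% of all genes were. Of the 6 measured export pumps Abcc4 was higher (12.6 against 8.02 CPM) and Abcc3 lower (24.1 against 37.3). Ptges, a prostaglandin E synthase of the Mgst1 family, was higher (6.43 against 3.33), as 1 of 3 measured MAPEG relatives. The aryl hydrocarbon receptor target Cyp1a1 had 329 UMIs in anti-PD-1 and 0 in control, where a count of 0 allows up to 0.0400 CPM.

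For combination against anti-PD-1, 3 of 20 Nrf2 targets were lower, where 4.7% of all genes were, namely Osgin1 (23.0 against 44.4 CPM), Slc7a11 (1.11 against 2.63) and Ephx1, an epoxide hydrolase (16.2 against 25.5), and none was higher. Among the other glutathione transferases Gsto2 and Gsta1 were lower, and the mu-class genes Gstm6 (26.2 against 16.2 CPM) and Gstm7 (6.00 against 3.50) were higher. These were 2 of 14 measured genes in each direction, where 4.7% of all genes were lower and 3.91% higher. Ggct, Chac2 and Slc7a11 were lower among 13 genes of glutathione synthesis and turnover, Glrx was lower among the peroxidases and glutaredoxins, and Bach2 was higher among the Nrf2 regulators. Cyp1a1, Ephx1 and Cyp2s1 were lower and Sult1a1 higher among the drug-metabolising enzymes, and the pump Abcg2 was higher (19.6 against 12.1 CPM). For combination against BTYNB, 0 genes of any of these lists lay past 1.5-fold in either direction.

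Between anti-PD-1 cells past both limits and past neither, other glutathione transferases also differed in both directions. Gsto2 was higher, with 198 UMIs against 74 in the fewer cells and a log2 ratio of 2.33, and Gstm6 (3.01 against 22.6), Gstm7 (0.458 against 5.42) and Gsta3 (1.18 against 4.56) were lower, with 2 of 10 measured genes higher and 6 lower, where 10.4% of all 12204 genes were higher and 27% lower. The alpha-class Gsta3 thus lay on the other side from the alpha-class Gsta4. Of the 20 Nrf2 targets 5 were higher and 0 lower, against the same shares of all genes, with Osgin1 at 91.5 against 27.5 CPM and Tkt, the transketolase, at 281 against 163. Of the 7 Nrf2 regulators 2 were lower, a share near the 27% of all genes, and 0 were higher. The 2 were the repressors Bach1 (15.6 against 41.2 CPM) and Bach2 (1.44 against 5.01). Ggct (205 against 75.1 CPM), Gss (68.8 against 26.4) and Slc7a11 (5.30 against 1.34) were higher and Oplah lower (13.9 against 66.7) in the synthesis list, and Glrx (67.1 against 27.4) and Prdx6 (304 against 144) were higher among the peroxidases. Cyp1a1 was higher, on 214 UMIs against 14, and Cyp1b1 and Aldh1a1 were lower. Among the export pumps Abcc4 was higher and Abcg2, Abcc5 and Abcc1 lower, and Ptges was higher and Alox5ap lower among the MAPEG relatives.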

How the data were processed

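Ascites cells of the 4 treatment groups were captured on BD Rhapsody. The authors deposited raw UMI counts per gene and cell, made with the vendor's sequence analysis pipeline. Genes are symbols and the build was GRCm39 per the labels. No values of other samples were in the files. Matrices were joined over 29835 genes. Cells with under 200 genes or over 33% mitochondrial UMIs (mt- genes) were removed, which left 7834 cells for control, 18283 for BTYNB, 12019 for anti-PD-1 and 7042 for the combination. No doublet caller was run. UMIs were summed per library and gate and scaled to CPM. Log2 ratios took a pseudocount of 1 CPM, which understates the change of scarce genes. With 1 library per group no test was made. Intervals (exact Poisson for levels, Clopper-Pearson for ratios and shares, 95%) cover counting error only. A count of 0 was given a limit of 3 counts. The calculation was tested on simulated data. Members and lists were chosen with earlier results of these data known. All members are named. Of each list, up to 4 genes with the largest absolute log2 ratio past 1.5-fold and at least 100 UMIs are named, apart from a result that is not reported here. The 12 alternatives are given in the closing section. Python 3.11.15, numpy 2.4.6, scipy 1.17.1, pandas 2.3.3 and matplotlib 3.10.9 were used.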

Additional observations from a re-analysis of the deposited data

Results flagged for a closer look

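In 6 pairs of comparisons a member pointed one way in 1 library pair and the other way in the matching pair, all in tumour-gate cells. None of these differences was tested, since each rests on single libraries. Gstm1 had a log2 ratio of -0.38 when BTYNB was set against control and 0.25 when the combination was set against anti-PD-1, and Gstm2 had -0.24 and 0.40. For anti-PD-1 against control and combination against BTYNB, Gstm1 had -0.53 and 0.091, Gstm2 -0.51 and 0.12, Mgst3 -0.37 and 0.082, and Gsta4 0.027 and -0.12. In cells past neither the Cxcl17 nor the Cd24a-module limit, Gstm1 had 0.04 and 0.18 for the first kind of pair (BTYNB over control, the combination over anti-PD-1) and Gstm2 still pointed both ways, at -0.16 and 0.19. For anti-PD-1 over control and the combination over BTYNB in these cells, Gstm2 had -0.18 and 0.16, again with opposite signs. Gstm1 had -0.12 and 0.02. The counting intervals behind the 0.02 overlapped (480 to 498 CPM in the combination, 471 to 491 in BTYNB), so its sign is open.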

How the results depend on the processing

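All 12 alternative settings were run, and 9 of them entered the pairs below. They included a common UMI floor of 5115, no quality limits and cells in exactly 1 gate. The mean of cells' CPM and leaving out the 5% deepest cells were others. The rest were at least 10 tumour marker UMIs, thinning, cells outside the Cxcl17 and Cd24a-module states, and scaling by the median of ratios. All reuse the same libraries, and values short of 1.5-fold were not in the pairs. The 9 values past 1.5-fold kept their direction in 81 of 81 pairs of value and alternative, and 79 of these stayed past 1.5-fold. The exceptions lay outside the Cxcl17 and Cd24a-module states, where Gsto1 for anti-PD-1 against control was 0.36 and Gsta4 for combination against anti-PD-1 was -0.49. There the count for combination against anti-PD-1 was 1 in place of 2 and that for anti-PD-1 against control 2 in place of 3. With a fold of 2 as the limit, BTYNB against control had 0 members in place of 4. With at least 10 tumour marker UMIs, anti-PD-1 against control had 5 in place of 3, Gstm1 (-0.66) and Gstm2 (-0.60) being added. With cells thinned to 2000 UMIs, combination against BTYNB had 1 in place of 0, namely Gstp2 (-0.65). Why these counts moved was not tested, beyond the construction of each alternative. With Gstp1 and Gstp2 summed, counts of 4 and 3 against control became 3 and 2. Scaling by the median of ratios kept all 4 counts. No paired analysis was possible because each group was 1 library. Depth limits Gstm5 most, with 133 to 165 UMIs per library in tumour-gate cells.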

Other observations

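Cells that entered no gate numbered 423 in control, 9171 in BTYNB, 700 under anti-PD-1 and 1315 in the combination, or 5.40%, 50.2%, 5.82% and 18.7% of the cells kept, with median depths of 7391, 1843, 5487.5 and 7409 UMIs. The 10 members together were at 2060 CPM in the ungated control cells, 780.3 in BTYNB, 2087 under anti-PD-1 and 1233 in the combination. Gstm2 was at 476, 162, 444 and 304 CPM in that order and Gsta4 at 273, 62.4, 272 and 94.7. Gsto1, at 93.4, 51.2, 159 and 74.1 CPM, was highest under anti-PD-1, as in the tumour gate. The ungated cells were not assigned a cell type.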
